A study of Mus musculus with 12 samples.

Results

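The nuclear genes for subunits of respiratory complexes II, III, IV and V were followed in bulk RNA sequencing of the mouse hypothalamus. Members were chosen by symbol: Sdha to Sdhd for complex II, Cyc1 and every Uqcr gene for complex III, every Cox4 to Cox8 gene for complex IV, and every Atp5 gene for complex V, leaving out names with -ps. This gave 51 of the 78334 Ensembl gene IDs in the deposited count table, with 4, 9, 19 and 19 in the 4 complexes. Of these, 48 of 51 passed the filter on low counts that left 25562 genes to test. Cox8c and a second Atp5o entry had 0 counts in all 12 libraries, and Cox7b2 was too low, at up to 0.298 CPM, which are counts relative to the library total after TMM scaling. The symbol rule also took in Cox6c2, which the annotation calls a processed pseudogene. The other 50 members are annotated as protein coding.

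The 12 libraries came from the hypothalamus of male C57BL/6 mice in 4 groups. Control mice (n = 3 libraries) ate standard diet and received vehicle. The diabetes group (n = 4) received streptozotocin, a toxin of insulin-producing beta cells, at 70 mg/kg on postnatal day 2, then a high-fat diet with 60% of its energy as fat for 8 weeks from 3 weeks of age, and vehicle. The curcumin group (n = 3) had the same injection and diet plus curcumin, a turmeric polyphenol, at 50 mg/kg by daily gavage for 28 days. The garlic group (n = 2) had the injection and diet plus aged garlic extract at 200 mg/kg on the same schedule. Every diabetes library had both streptozotocin and the high-fat diet, and no control library had either, so these cannot be told apart in a comparison with control. No injection of control pups is stated, so the drug and the injection procedure cannot be told apart either. One source starts the compounds at week 7 of the diet and another after 11 weeks, which is longer than the stated diet. Nothing states that every library is a different animal; the p-values therefore reflect differences among libraries, part of which could be technical.

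The respiratory chain sits in the inner mitochondrial membrane. Complex II (succinate dehydrogenase) passes electrons from the citric acid cycle to ubiquinone, complex III passes them on to cytochrome c, complex IV (cytochrome c oxidase) hands them to oxygen, and complex V (ATP synthase) uses the proton gradient to make ATP. Complex II is encoded wholly in the nucleus, whereas complexes III, IV and V also hold a few subunits encoded in mitochondrial DNA. Neurons depend heavily on this pathway for ATP, and several complex IV subunits exist as a ubiquitous form and a form typical of heart, skeletal muscle, lung or testis.

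Library totals ran from 12950017 to 30271706 counts. At a common depth, 20133 to 22515 genes were detected in the diabetes libraries, 25766 to 33157 in control, 33125 and 34719 in garlic, and 20917, 29126 and 22337 in the 3 curcumin libraries. Curcumin replicate 2 stood apart: its 14 hypothalamus markers summed to 57.1 CPM, with 6 of the 14 at 0, against 211 to 334 in the other 11 libraries with none at 0. It also had the highest summed markers of oligodendrocytes (11756 CPM, 8 markers) and neurons (5733 CPM, 8 markers). Its thalamus and habenula sum was the highest too (1179 CPM over 16 markers, against up to 1072 elsewhere). Diabetes replicate 4 had 881 CPM of 11 pituitary markers against 4.77 to 26.1 elsewhere, and the highest blood marker sum (1862 CPM over 8 markers). Control replicate 3 had the lowest astrocyte sum (1092 CPM over 8 markers, against 2718 to 4084 elsewhere). Garlic replicate 1 had the highest cortex and striatum sum (273 CPM over 10 markers, against 104 to 160 elsewhere). In bulk tissue, fewer cells of a type and less RNA per cell cannot be told apart.

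The share of all counts that fell on the members, with its 95% Wilson interval for counting error only, was lowest in curcumin replicate 1, at 0.477% (0.474 to 0.480), and highest in diabetes replicate 3, at 1.25% (1.248 to 1.260). It was 0.686, 0.706 and 0.669% in control, 1.07, 0.868, 1.25 and 1.24% in diabetes, 0.477, 1.09 and 0.682% in curcumin, and 0.586 and 0.699% in garlic. All 4 diabetes libraries therefore lay above all control and garlic libraries, and curcumin replicate 2 lay among the diabetes libraries while the other 2 curcumin libraries did not. Summed over members, the level was 6659 ± 292 CPM in control (SD, n = 3), 11708 ± 2393 in diabetes (SD, n = 4), 7564 ± 3649 in curcumin (SD, n = 3) and 6223 ± 739 in garlic (SD, n = 2). By complex, the control and diabetes sums were 735 ± 52.6 and 953 ± 153 CPM for complex II, 1046 ± 49.7 and 1921 ± 404 for complex III, 1953 ± 95.6 and 4033 ± 999 for complex IV, and 2925 ± 302 and 4801 ± 858 for complex V. Complex II was thus the smallest of the 4 sums and the one whose diabetes and control libraries overlapped.

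**Figure D1:**
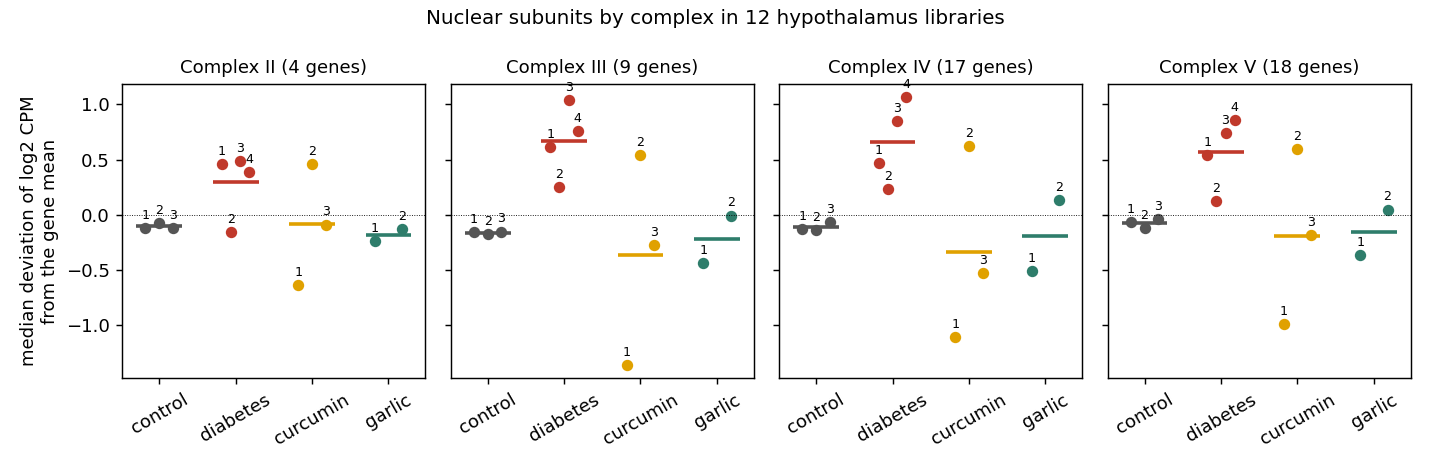
For each library, the points give the median over the tested genes of a complex of the deviation of log2 CPM (prior count 2) from the gene's own mean over the 4 groups; numbers are replicate numbers and lines are group means. For complex III, all 4 diabetes libraries (0.25 to 1.04) lie above the 3 control libraries (-0.18 to -0.15), and the curcumin libraries run from -1.36 to 0.54.

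In diabetes against control, 44 of the 48 tested members had a positive log2 fold change and 4 a negative one, but none passed an adjusted p of 0.05 in edgeR's quasi-likelihood test (0.0156% of all genes passed, in either direction). The median over members was 0.73 on the log2 scale, against -0.07 over all genes tested. At an unadjusted p under 0.05, 20 members were higher (4.79% of all genes), and in 24 members every diabetes library was above every control library (5.78% of all genes). The smallest edgeR adjusted p was 0.0791, for Atp5j2. The medians were 0.36 for complex II, 0.79 for III, 0.96 for IV and 0.61 for V. The number of members called depended on the tool and on which libraries were in the fit, and the calls over all genes moved too. Leaving out a library changed the filter and the scaling as well as the estimate of spread, and their parts were not tested. DESeq2 called 13 of the 40 members to which it gave an adjusted p (4.81% of all such genes), and limma-voom with library weights called 19 of 48 (4.60%). The edgeR test called 7 without curcumin replicate 1 (0.349% of all genes), 7 without curcumin replicate 2 (0.402%), 8 without garlic replicate 1 (0.624%) and 7 without garlic replicate 2 (0.530%), although none of these libraries is in the comparison. Without diabetes replicate 4 and curcumin replicate 2, 24 members still did not overlap (7.25% of all genes), 25 were higher at an unadjusted p under 0.05 (5.02%), and none passed the adjusted threshold.

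Other measures moved with the diabetes label. The summed hypothalamus markers were 219 to 268 CPM in control and 309 to 334 in diabetes, and the summed blood markers 154 to 312 and 363 to 1862, neither pair overlapping; their part in the members' difference was not tested. Neuron markers were 3702 to 3976 CPM in control and 3175 to 3754 in diabetes. Fewer genes were detected in every diabetes library than in any control library. After adding the number of detected genes to the model, the median over members was 1.46 and no member passed (0% of all genes). Because that number did not overlap between these groups, the model cannot tell it apart from the group, and 1.46 is not a corrected difference.

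In curcumin against diabetes, 45 of the 48 members had a negative log2 fold change, with a median of -0.77 (0.07 over all genes), and none passed the adjusted threshold (0.0900% of all genes did). At an unadjusted p under 0.05, 23 members were lower (6.71% of all genes), and in 8 every curcumin library was below every diabetes library (4.19%). Those 8 were Sdhb, Uqcr10, Uqcrq, Cox7a2l, Atp5e, Atp5j2, Atp5l and Atp5o. The smallest edgeR adjusted p was 0.0957, for Atp5e. Complex medians were -0.37 (II), -0.94 (III), -0.83 (IV) and -0.76 (V). The result turned on curcumin replicate 2: without it 25 members passed (7.79% of all genes) and the median was -1.32. Without both that library and diabetes replicate 4, 20 passed (4.32%), 34 were lower at an unadjusted p under 0.05 (12.3% of all genes) and 36 did not overlap (14.4%). These counts rest on curcumin replicates 1 and 3. Their trend with transcript length put genes of the members' lengths at -0.93 and -0.46 on the log2 scale. Over all 12 libraries with that trend removed, none passed (0.207% of all genes). The removal was not run without replicate 2. Without curcumin replicate 1 the median was -0.44 and none passed, and without garlic replicate 1 or garlic replicate 2, 7 passed in each case (1.73 and 1.60% of all genes). DESeq2 called 11 of 47 members (4.50% of all genes) and limma-voom 5 of 48 (0.481%). With the number of detected genes in the model, the median was -1.25 and 8 passed (1.47%).

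In garlic against diabetes, 44 of 48 members had a negative log2 fold change, with a median of -0.86 (0.07 over all genes), and none passed the adjusted threshold (0% of all genes did). At an unadjusted p under 0.05, 20 members were lower (4.03% of all genes), and in 25 both garlic libraries were below all 4 diabetes libraries (7.52%). The smallest edgeR adjusted p was 0.12, again for Atp5j2. Complex medians were -0.37 (II), -0.83 (III), -1.07 (IV) and -0.72 (V). DESeq2 called 12 of 40 members (3.69% of all genes) and limma-voom 14 of 48 (1.68%), and the edgeR test called 2 without curcumin replicate 1 (0.148%), 3 without curcumin replicate 2 (0.280%) and 1 without garlic replicate 2 (0.169%). With the number of detected genes in the model, the median was -2.13 and none passed (0% of all genes). That number did not overlap between garlic and diabetes either, so the model cannot tell it apart from the group. These 3 comparisons share the diabetes libraries, so a high diabetes value enters all of them.

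**Figure D2:**
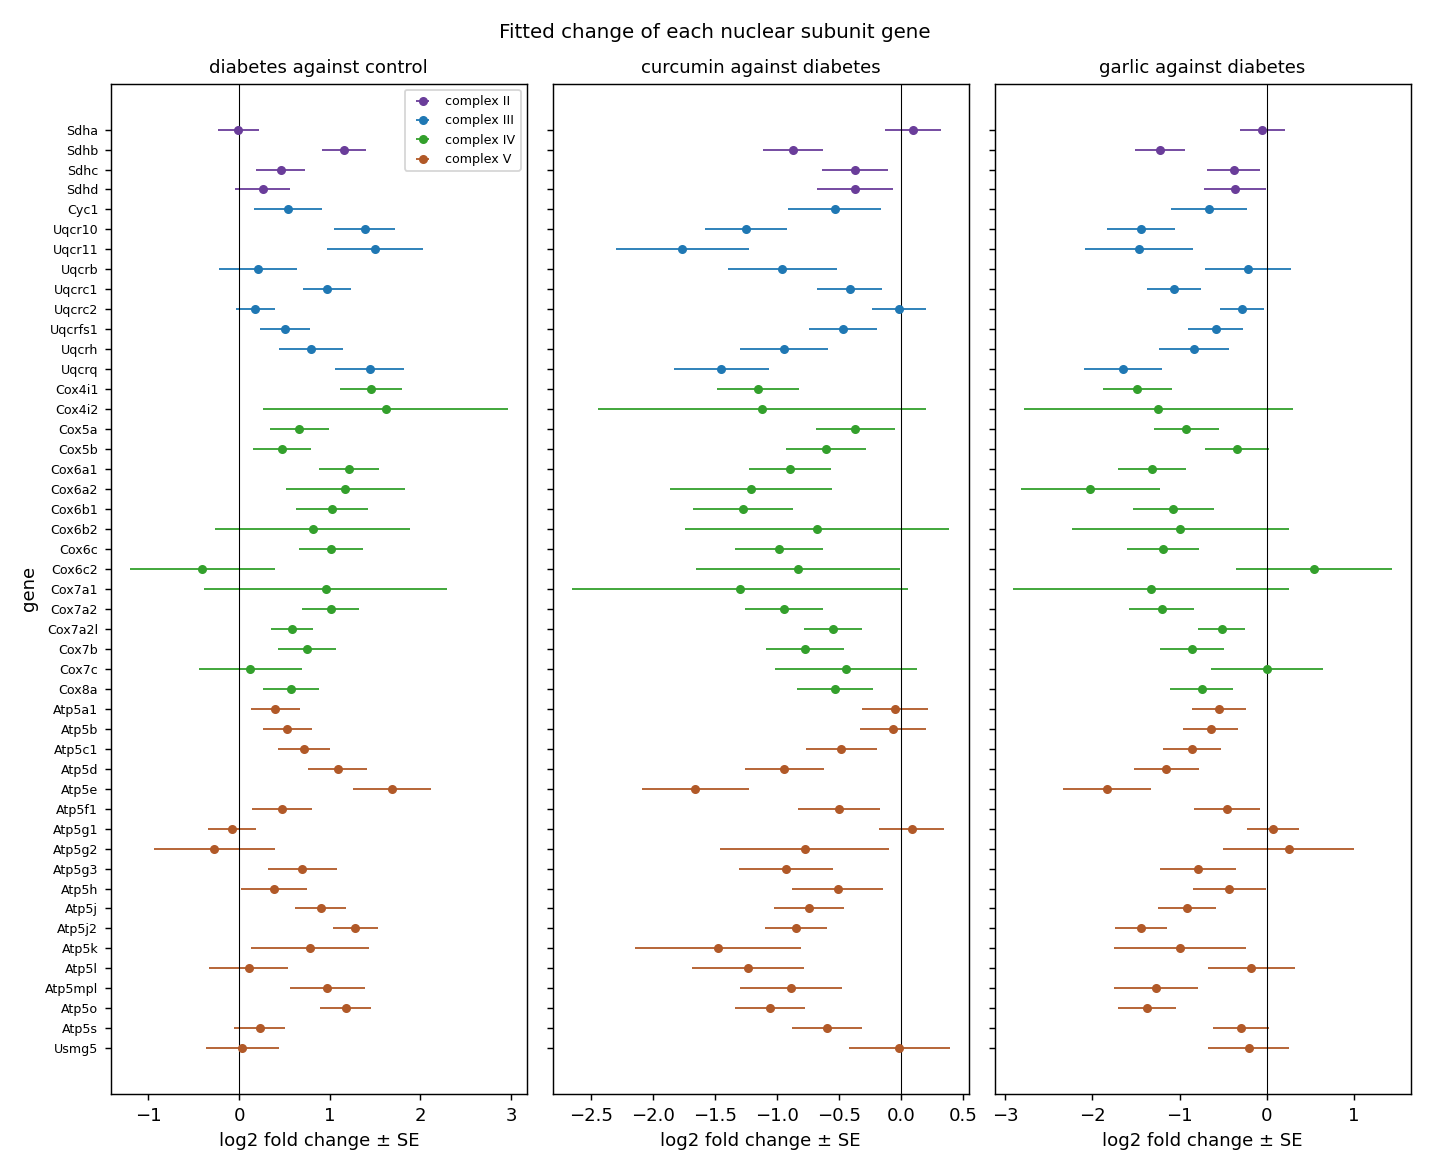
Points give the log2 fold change of each tested member, coloured by complex, with bars of 1 standard error, in the 3 comparisons that involve the diabetes libraries; Cox8b, with counts in 3 libraries only, is left out. Most diabetes values lie right of 0 and most curcumin and garlic values left of it, and Sdha lies at 0 in all 3 (-0.01, 0.10 and -0.05).

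Library by library, the number of members above all 3 control libraries was 38, 25, 40 and 42 of 48 in diabetes replicates 1 to 4, where 27.5 to 28.9% of all genes were above. The curcumin libraries had 1, 40 and 6 such members, in replicate order, and the garlic libraries 1 and 19, where 30.5, 29.3 and 26.5% of all genes were above in curcumin and 24.1 and 24.4% in garlic. Conversely, 38, 2 and 25 members were below all control libraries in the curcumin libraries (39.1, 26.0 and 33.6% of all genes), and 32 and 4 in the garlic libraries (21.2 and 23.1%). The treated libraries of 1 group thus lay on both sides of control. The score over all members was -1.08, 0.58 and -0.26 in curcumin and -0.45 and 0.04 in garlic, against -0.09, -0.13 and -0.07 in control and 0.53, 0.21, 0.84 and 0.91 in diabetes.

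**Figure D3:**
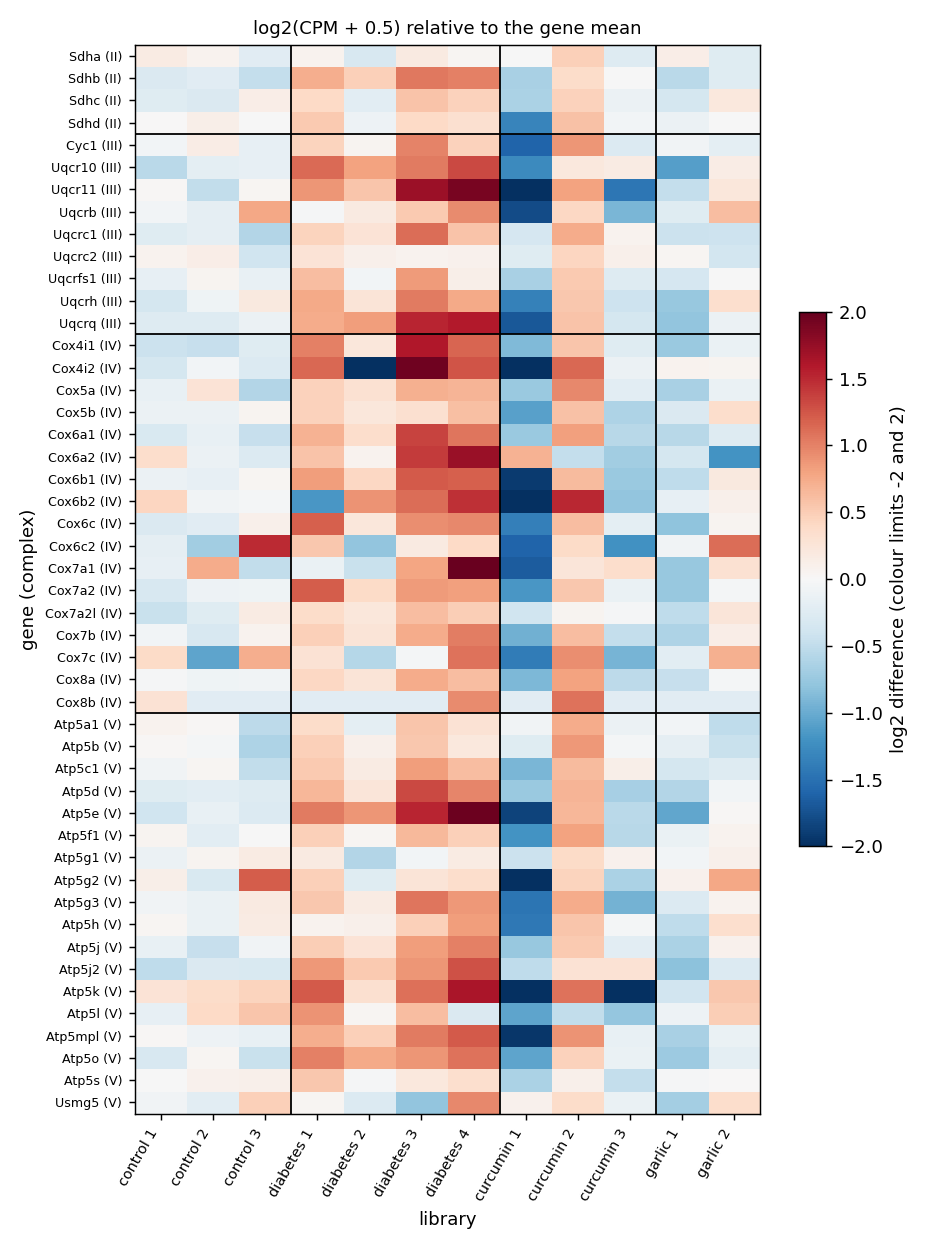
Each row is a tested member and each column a library; colour gives log2(CPM + 0.5) relative to the mean of the 4 group means, with limits at -2 and 2. The diabetes columns and curcumin replicate 2 are mostly red and curcumin replicate 1 mostly blue, with 38 of 48 members below every control library in the latter.

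Complex II has a catalytic part, made of the flavoprotein Sdha and the iron-sulfur protein Sdhb, held in the membrane by Sdhc and Sdhd. Sdhb stood at 139, 145 and 122 CPM in control, 279.6, 235, 351 and 341 in diabetes, 108, 217 and 169 in curcumin and 116 and 142 in garlic. Every diabetes library was above every library of the other 3 groups. The log2 fold change was 1.16 ± 0.24 (SE) in diabetes against control (edgeR adjusted p = 0.108), -0.87 ± 0.24 in curcumin against diabetes (adjusted p = 0.113) and -1.22 ± 0.28 in garlic against diabetes (adjusted p = 0.18). Sdha, its partner, stood at 466, 434 and 353 CPM in control, 435, 332, 467 and 424 in diabetes, 414, 574 and 345 in curcumin and 452 and 349 in garlic. The groups overlapped throughout, and the 3 log2 fold changes were -0.01 ± 0.23, 0.10 ± 0.23 and -0.05 ± 0.26. The membrane anchors lay between these, at 0.46 ± 0.27 for Sdhc and 0.26 ± 0.31 for Sdhd in diabetes against control, with groups that overlapped.

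The promoters of Sdhb and Sdha are shown because the pair differ in their values while sharing a complex. Nuclear respiratory factor 1 (NRF1) and GABPA, a subunit of nuclear respiratory factor 2, are transcription factors known to bind promoters of respiratory chain genes. YY1 is a further factor known at some of them. The 150 bases before the RefSeq start site on GRCm38.p6 are printed in the direction of transcription, from chr4:140961121-140961270 (plus strand) for Sdhb and chr13:74350241-74350390 (minus strand) for Sdha, with matches to NRF1, GABPA or YY1 letters in capitals.
Sdhb: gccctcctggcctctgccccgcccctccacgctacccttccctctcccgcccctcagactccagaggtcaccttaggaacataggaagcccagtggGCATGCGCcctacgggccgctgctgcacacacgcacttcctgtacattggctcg
Sdha: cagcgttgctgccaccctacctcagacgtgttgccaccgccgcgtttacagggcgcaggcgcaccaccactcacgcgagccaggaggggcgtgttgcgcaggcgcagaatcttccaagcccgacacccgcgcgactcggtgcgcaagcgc
The capitals in Sdhb are 1 NRF1 match; its longer window also held 1 GABPA and 3 SP1 matches, whereas that of Sdha held none of the 5 motifs searched. Of the 51 members, 37 had a window in the RefSeq table, from 250 bases before to 50 after the start. On either strand, NRF1 letters (GCATGCGC) were in 7 of 37 members (18.9%) and 3.05% of 27025 genes with a window, GABPA letters (CCGGAAG) in 13 (35.1%) and 9.93%, YY1 letters (AAGATGGC) in 3 (8.11%) and 3.19%, ESRRA letters (TCAAGGTCA) in 2 (5.41%) and 0.466%, and SP1 letters (GGGCGG) in 15 (40.5%) and 38.2%. Among the 17492 protein-coding genes with a window, which fit the members better, the shares were 3.94% for NRF1, 12.9% for GABPA, 3.57% for YY1, 0.377% for ESRRA and 49.2% for SP1, so the members' share of SP1 letters was above that of all genes and below that of coding genes. The 7 with NRF1 letters were Sdhb, Uqcrc1, Uqcr11, Cox6a1, Atp5k, Atp5l and Atp5g2; where the palindrome GCGCATGCGC occurs, both strands match at overlapping bases. A match describes letters only and says nothing of binding. Members higher in every diabetes than every control library occurred with and without matches. Uqcrc1, Uqcr11 and Cox6a1 held NRF1 letters, and Uqcr10 and Atp5o held none of the 5 motifs. Atp5g2, with NRF1 letters, had a negative log2 fold change in diabetes against control that was smaller than its SE. Whether matches go with fold changes was not tested.

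Complex III passes electrons through the Rieske iron-sulfur protein Uqcrfs1 to cytochrome c1, encoded by Cyc1. Uqcrfs1 stood at 117, 136 and 117 CPM in control, 199, 125, 234 and 141 in diabetes, 82.8, 188 and 109 in curcumin and 103 and 129.6 in garlic. Cyc1 stood at 152, 174 and 139.8 CPM in control, 214, 163, 312 and 216 in diabetes, 51.6, 288 and 129 in curcumin and 149 and 137 in garlic. In both, diabetes replicate 3 was highest of the diabetes libraries and diabetes and control overlapped; the log2 fold changes were 0.50 ± 0.27 and 0.54 ± 0.37. The large core subunits Uqcrc1 and Uqcrc2 differed from each other. Uqcrc1 stood at 247, 259.8 and 195 CPM in control, 399.9, 357, 636 and 438 in diabetes, 233, 491 and 309 in curcumin and 217 and 220.1 in garlic. All 4 diabetes libraries were above control and garlic, whereas curcumin replicate 2 lay among them. Uqcrc2 stood at 151, 157 and 109 CPM in control, 173, 153, 151 and 152 in diabetes, 121, 194 and 153 in curcumin and 147 and 111 in garlic. Diabetes against control was 0.97 ± 0.27 for Uqcrc1 (edgeR adjusted p = 0.187) and 0.18 ± 0.22 for Uqcrc2 (adjusted p = 0.899).

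Of the 9 complex III members, Uqcr11, Uqcrq and Uqcr10, all small subunits, had the highest log2 fold changes in diabetes against control. Uqcr10 stood at 55.3, 70.5 and 72.6 CPM in control, 179, 142, 167 and 202 in diabetes, 33.3, 94.1 and 90.5 in curcumin and 37.5 and 89.7 in garlic. No diabetes library overlapped any library of the other groups, and the log2 fold changes were 1.38 ± 0.33, -1.25 ± 0.33 and -1.44 ± 0.39 in the 3 comparisons (edgeR adjusted p = 0.135, 0.101 and 0.22). Uqcrq stood at 124, 124 and 136 CPM in control, 249, 265, 429 and 447 in diabetes, 45.3, 221 and 116 in curcumin and 85.3 and 137 in garlic. It also did not overlap, with 1.44 ± 0.38, -1.45 ± 0.38 and -1.65 ± 0.45 (edgeR adjusted p = 0.17, 0.1 and 0.22). Uqcr11 stood at 51.6, 35.9 and 51.8 CPM in control, 93.1, 74.6, 167 and 190.2 in diabetes, 9.61, 88.2 and 18.2 in curcumin and 36.0 and 59.2 in garlic. Diabetes was above control and garlic, and curcumin spread over 9.61 to 88.2 CPM; diabetes against control was 1.50 ± 0.53 (edgeR adjusted p = 0.308). Uqcrh, the hinge protein, was at 0.79 ± 0.35 with no overlap between diabetes and control. Uqcrb stood at 19.4, 17.9 and 35.0 CPM in control, 19.9, 23.0, 29.2 and 39.3 in diabetes, 5.49, 27.2 and 10.5 in curcumin and 17.0 and 31.2 in garlic. Its groups overlapped, with a log2 fold change of 0.21 ± 0.43; 29.1% of the 75-base windows of its transcripts also occur in transcripts of other genes.

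In complex IV, Cox4i1, the main form of the subunit at which ATP regulates the enzyme, had the highest level per length of all members, at 1091 CPM per kilobase over the 12 libraries. It stood at 491, 479 and 561 CPM in control, 1325, 770.5, 2016 and 1486 in diabetes, 359.8, 969 and 561 in curcumin and 394 and 606 in garlic. Diabetes lay above control and garlic, and curcumin replicate 2 was above diabetes replicate 2. The log2 fold changes were 1.46 ± 0.34, -1.15 ± 0.33 and -1.48 ± 0.39 in the 3 comparisons (edgeR adjusted p = 0.125, 0.123 and 0.218). Next in level per length came Cox6a1 (664 CPM per kilobase) and Cox8a (628). Cox6a1 stood at 254, 284 and 227 CPM in control, 508, 400.5, 796 and 655 in diabetes, 186, 555 and 213 in curcumin and 212 and 262 in garlic. Cox8a stood at 307, 294 and 297 CPM in control, 413, 372, 523 and 478 in diabetes, 168, 543 and 216 in curcumin and 227 and 305 in garlic. In both, diabetes was above control without overlap, at 1.21 ± 0.33 and 0.58 ± 0.31 (edgeR adjusted p = 0.187 and 0.477).

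Cox5a and Cox5b, nuclear subunits near the catalytic core, come next. Cox5a stood at 101, 135 and 73.8 CPM in control, 154, 138, 183 and 180.0 in diabetes, 66.5, 218 and 96.7 in curcumin and 71.1 and 102 in garlic. Cox5b stood at 31.8, 31.9 and 36.1 CPM in control, 47.8, 40.7, 43.4 and 53.1 in diabetes, 16.1, 52.7 and 22.4 in curcumin and 28.4 and 44.6 in garlic. Diabetes was above control in each, at 0.66 ± 0.32 and 0.47 ± 0.32 (edgeR adjusted p = 0.415 and 0.64), while curcumin replicate 2 was within or above the diabetes range. Cox7a2 stood at 98.4, 114 and 115 CPM in control, 284, 159.8, 221 and 216 in diabetes, 54.4, 179 and 112 in curcumin and 72.2 and 119 in garlic. Cox7a2l, related in sequence and known to link complexes III and IV in supercomplexes, stood at 126, 146 and 193 CPM in control, 221, 202, 264 and 242 in diabetes, 129.7, 179 and 169 in curcumin and 121 and 204 in garlic. Both were higher in every diabetes than every control library, with log2 fold changes of 1.01 ± 0.32 and 0.59 ± 0.23 (edgeR adjusted p = 0.25 and 0.338). Of the others, Cox6b1, Cox6c and Cox7b were at 1.03 ± 0.40, 1.01 ± 0.35 and 0.75 ± 0.32 with no overlap, and Cox7c at 0.12 ± 0.57 with overlap.

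The ubiquitous forms carried nearly all of the signal. Per length, Cox4i1 made up 99.7% of the Cox4 genes, Cox6a1 98.9% of Cox6a, Cox6b1 98.3% of Cox6b and Cox8a 99.96% of Cox8, as means over libraries. The Cox7a family was split between Cox7a2 (55.3%) and Cox7a2l (43.9%), with 0.754% of the muscle form Cox7a1. Cox4i2, the lung form, stood at 1.27, 1.66 and 1.36 CPM in control, 4.49, 0, 8.18 and 4.91 in diabetes, 0, 4.47 and 1.59 in curcumin and 1.86 and 1.84 in garlic. Cox6a2, the heart and muscle form, stood at 4.64, 3.21 and 2.81 CPM in control, 5.48, 3.72, 10.1 and 12.8 in diabetes, 6.01, 2.38 and 1.98 in curcumin and 2.66 and 1.26 in garlic. Cox7a1 stood at 0.929, 2.16 and 0.635 CPM in control, 0.954, 0.676, 2.26 and 5.74 in diabetes, 0, 1.39 and 1.54 in curcumin and 0.443 and 1.47 in garlic. All 3 were low, and diabetes and control overlapped in each, with SEs of the log2 fold change of 0.65 to 1.35. Summed striated muscle markers were 26.1 to 38.3 CPM in diabetes and 23.3 to 34.7 in control. Cox6c2, the processed pseudogene, stood at 2.74, 1.77 and 9.93 CPM in control, 4.87, 1.63, 3.66 and 4.34 in diabetes, 0.71, 4.32 and 1.09 in curcumin and 3.01 and 7.53 in garlic, with a log2 fold change of -0.41 ± 0.80; 45.2% of its windows are shared with other transcripts.

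Complex V has a catalytic head of alpha and beta subunits, a central rotor with a ring of c subunits, and a peripheral stalk. The alpha subunit Atp5a1 stood at 877, 849 and 584 CPM in control, 1084, 729.8, 1225 and 1024 in diabetes, 793, 1393 and 767 in curcumin and 802 and 586 in garlic. The beta subunit Atp5b stood at 817, 779.9 and 523 CPM in control, 1119, 861, 1168 and 935 in diabetes, 679.9, 1470.4 and 783 in curcumin and 714 and 592 in garlic. The log2 fold changes in diabetes against control were 0.40 ± 0.27 and 0.53 ± 0.27; only Atp5b did not overlap, and curcumin replicate 2 had the highest value of all 12 libraries in both. The central stalk subunit Atp5e (epsilon) stood at 92.3, 109 and 100.3 CPM in control, 251, 224, 349 and 476 in diabetes, 33.1, 193 and 83.3 in curcumin and 59.0 and 124 in garlic. Every diabetes library was above every other library, and the log2 fold changes were 1.69 ± 0.43, -1.66 ± 0.43 and -1.83 ± 0.51 (edgeR adjusted p = 0.151, 0.0957 and 0.228). Atp5c1 (gamma) and Atp5d (delta) of the same stalk were at 0.71 ± 0.29 and 1.09 ± 0.32 in diabetes against control, both without overlap. The Atp5e promoter window, chr2:174464102-174464251 on the minus strand of GRCm38.p6, holds 1 GABPA match, in capitals, and is shown for the member with the highest diabetes fold change.
Atp5e: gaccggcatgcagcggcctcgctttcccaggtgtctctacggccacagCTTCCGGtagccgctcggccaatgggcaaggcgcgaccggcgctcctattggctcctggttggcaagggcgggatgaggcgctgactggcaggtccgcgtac

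Atp5j2, the f subunit in the membrane, had the smallest p of all members in 2 comparisons. It stood at 134, 157 and 154 CPM in control, 349.6, 275, 353 and 463 in diabetes, 134, 234 and 234 in curcumin and 107 and 158 in garlic. The diabetes libraries were above all others, and the log2 fold changes were 1.28 ± 0.25, -0.84 ± 0.25 and -1.44 ± 0.29 (edgeR adjusted p = 0.0791, 0.127 and 0.12). Of the peripheral stalk, Atp5o (OSCP) and Atp5j (F6) were at 1.17 ± 0.29 and 0.90 ± 0.29 in diabetes against control without overlap, and Atp5f1 (b) and Atp5h (d) at 0.48 ± 0.33 and 0.38 ± 0.37 with overlap. Atp5k, the membrane subunit e, was at 6.63, 90.4 and 4.86 CPM in curcumin and 51.4, 55.1 and 58.0 in control; it was the member called in curcumin against control when curcumin replicate 2 was left out (0.193% of all genes).

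Among the transcripts of the 3 c ring genes, Atp5g3 made up 95.9% per length. The length used for Atp5g1 was 4715 bases, against 2675 for its principal transcript, which lowers its share. The make-up of the ring itself was not measured. Atp5g1 stood at 28.2, 31.8 and 34.6 CPM in control, 34.9, 20.4, 29.6 and 34.5 in diabetes, 22.7, 40.1 and 32.5 in curcumin and 29.6 and 33.1 in garlic. Atp5g2 stood at 6.16, 4.48 and 13.8 CPM in control, 8.05, 4.73, 6.88 and 7.34 in diabetes, 0.426, 7.94 and 3.47 in curcumin and 6.03 and 10.1 in garlic. Neither differed between diabetes and control beyond its SE, at -0.08 ± 0.26 and -0.27 ± 0.66, against 0.70 ± 0.38 for Atp5g3; 86.9% of the Atp5g2 windows are shared with other transcripts, so its count is uncertain. Atpif1, which encodes the inhibitor that stops ATP synthase from running backwards and is no member by symbol, stood at 78.6, 85.2 and 158 CPM in control, 180.4, 143, 188 and 161 in diabetes, 36.4, 107 and 65.6 in curcumin and 68.2 and 146 in garlic. Diabetes and control overlapped, and curcumin lay below diabetes without overlap, at -1.27 ± 0.34 (edgeR adjusted p = 0.106).

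Of the 6 mitochondrially encoded subunits of complexes III to V, 5 had a negative log2 fold change in diabetes against control. Their sum was 31544 ± 5090 CPM in control (SD, n = 3), 27556 ± 4426 in diabetes (SD, n = 4), 28046 ± 8915 in curcumin (SD, n = 3) and 32038 ± 6884 in garlic (SD, n = 2). In edgeR, 0 of the 6 passed in any comparison, and the median was -0.25 in diabetes against control, -0.02 in curcumin against diabetes and 0.32 in garlic against diabetes. For mt-Co1, the catalytic subunit of complex IV, the 12 values were 15111, 14302 and 18557 CPM in control, 14523, 16131, 10481 and 13310.5 in diabetes, 13141, 19214 and 11944 in curcumin and 13741 and 16732 in garlic, and diabetes against control was -0.23 ± 0.27. For mt-Cytb, of complex III, that value was -0.35 ± 0.30, for mt-Co2 -0.11 ± 0.29, for mt-Co3 0.18 ± 0.27, for mt-Atp6 -0.26 ± 0.28 and for mt-Atp8 -0.61 ± 0.42. The difference between nuclear and mitochondrial genes was not tested.

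Other genes of the pathway were counted from lists, with none passing the adjusted threshold in these 3 comparisons. Of the 38 tested assembly factors, 10 were higher in diabetes than control at an unadjusted p under 0.05 (4.79% of all genes), and 13 were lower in curcumin (6.71%) and 8 in garlic (4.03%) than in diabetes, with medians of 0.35, -0.52 and -0.38. Coa3, a complex IV assembly factor, was at 1.01 ± 0.29 in diabetes against control (edgeR adjusted p = 0.216), and Uqcc3, for complex III, at 1.08 ± 0.32. The 9 carriers around the complexes had medians of 0.30, -0.36 and -0.37, led by Ndufa4, now known as a complex IV subunit, at 0.86 ± 0.35. The 13 citric acid cycle enzymes had medians of 0.18, 0.02 and -0.09, with Mdh2 at 0.59 ± 0.25 and Suclg1 at 0.63 ± 0.26 in diabetes against control. Complex I, the entry point for NADH, had 24 of 38 tested subunits higher in diabetes than control at an unadjusted p under 0.05, 23 lower in curcumin and 20 lower in garlic than diabetes, beside the same shares of all genes, with medians of 0.86, -0.95 and -0.94. Ndufs8 was at 1.45 ± 0.28 in diabetes against control (edgeR adjusted p = 0.0791).

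Ratios of counts within a library do not depend on how libraries are scaled. They can still depend on a library's trend with transcript length where the paired genes differ in length. Sdhb and Sdha are 1142 and 2900 bases long, and Atp5e and Atp5b 421 and 1916. Curcumin replicates 1 and 3 had such a trend, given below, and its part in the ratios was not tested. The next 4 pairs were chosen after the values were seen, so they are given with no test. The ratio of Sdhb to Sdha, the catalytic subunits of complex II, was 0.298, 0.334 and 0.345 in control, 0.642, 0.707, 0.752 and 0.803 in diabetes, 0.262, 0.379 and 0.490 in curcumin and 0.257 and 0.408 in garlic. Every diabetes library was above every other library, curcumin replicate 2 included. Of the Uqcrc2 windows, 23.8% are shared with other transcripts, and the part of this in its ratio to Uqcrc1 was not tested. The ratio of Uqcrc1 to Uqcrc2, the core subunits of complex III, ran from 1.64 to 1.78 in control and from 2.31 to 4.22 in diabetes. The curcumin libraries gave 1.93, 2.53 and 2.01 and the garlic libraries 1.47 and 1.99, so here curcumin replicate 2 lay within the diabetes range. The ratio of nuclear Cox4i1 to mitochondrial mt-Co1 ran from 0.0303 to 0.0335 in control and from 0.0478 to 0.192 in diabetes. The curcumin libraries gave 0.0274, 0.0504 and 0.0470, so replicate 2 again lay within the diabetes range, and the garlic libraries 0.0287 and 0.0362. The ratio of Atp5e to Atp5b ran from 0.113 to 0.192 in control and from 0.224 to 0.509 in diabetes, without overlap. The curcumin libraries gave 0.0487, 0.131 and 0.106 and the garlic libraries 0.0827 and 0.209.

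**Figure D4:**
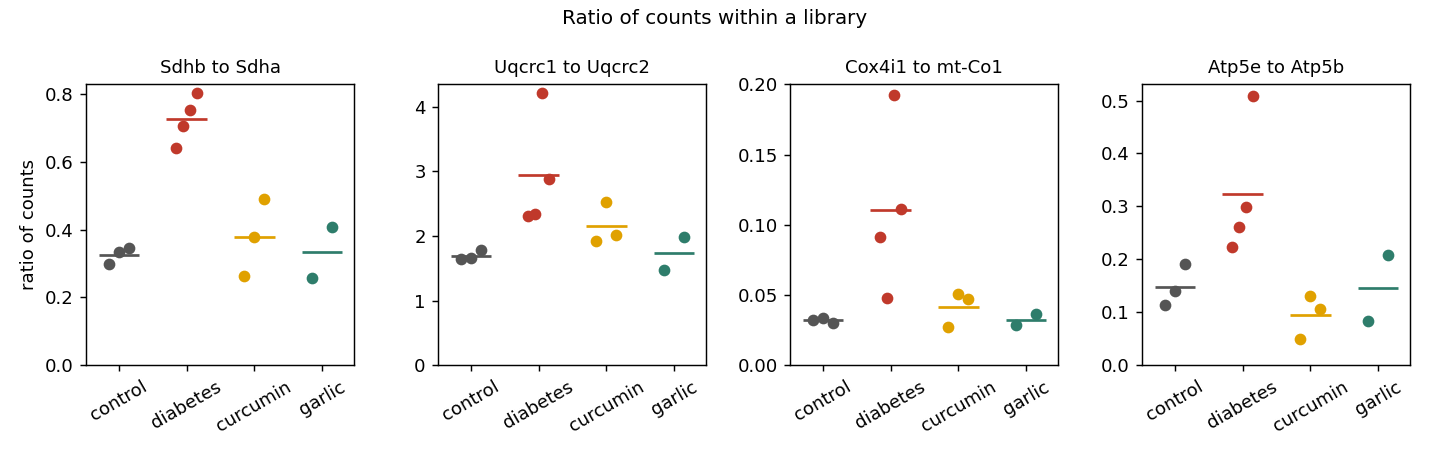
Points give the ratio of the counts of the 2 named genes in each library, by group, with lines at group means and vertical axes from 0. For Sdhb to Sdha, the diabetes libraries (0.642 to 0.803) lie above all other libraries (0.257 to 0.490).

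The members' transcripts are short, with a median length of 751 bases against 2557 for all tested genes. Lengths here, and in levels per length, are of the longest annotated transcript of a gene. This can exceed the annotation's principal transcript, as for Usmg5 (2733 against 362 bases) and Uqcrq (1521 against 963), both counted below as longer than 1000 bases. Across the 48 tested members, which share libraries and depth, Spearman's rho between transcript length and log2 fold change was -0.33 in diabetes against control, 0.61 in curcumin against diabetes and 0.36 in garlic against diabetes. For curcumin against diabetes, the median was -0.47 over the 19 members longer than 1000 bases and -0.94 over the 29 others; for diabetes against control these were 0.50 and 0.96. Curcumin replicates 1 and 3 had a trend with length over all genes that put genes of the members' lengths at -0.93 and -0.46 on the log2 scale, against -0.10 to 0.22 in the other 10 libraries. With the trend removed, the median over members was -0.47 in curcumin against diabetes, with none passing; it was 0.66 in diabetes against control, with 12 passing (0.865% of all genes), and -0.90 in garlic against diabetes, with 11 passing (0.927%). Sequence shared with other genes also went with the values: the 10 members with over 20% of windows shared had a median of 0.19 in diabetes against control, and the other 38 a median of 0.85; the part of shared sequence in these values was not tested. How reads that map to several places were counted is not given in the sources used here.

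**Figure D5:**
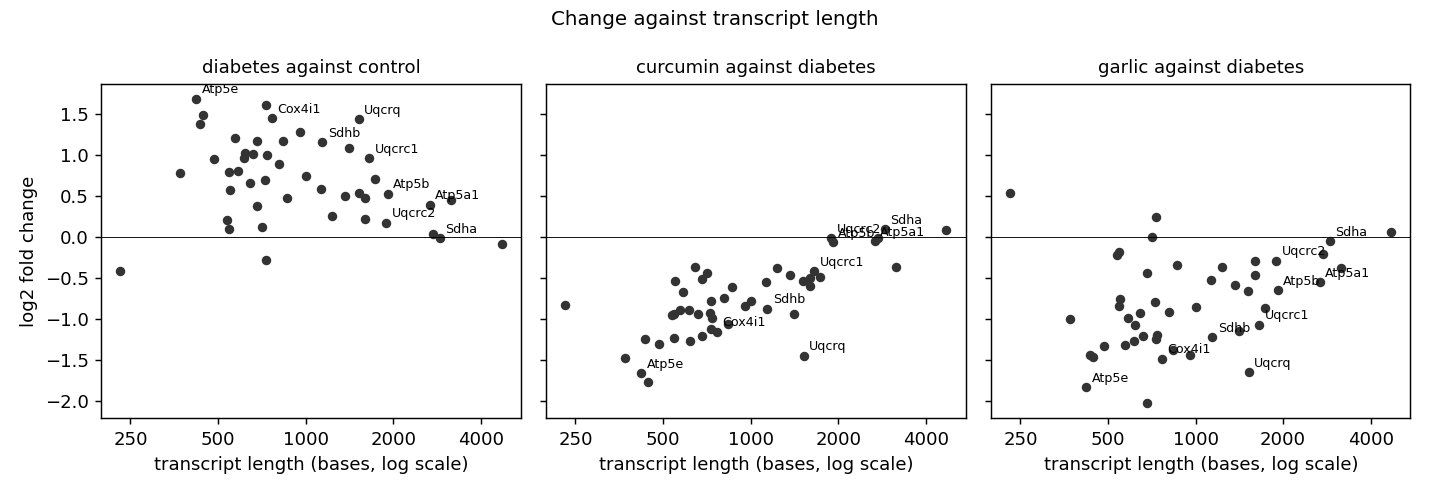
Each point is a tested member other than Cox8b, with transcript length in bases on a log axis and the log2 fold change of the comparison on the vertical axis. Spearman's rho over all 48 tested members, Cox8b included, is -0.33, 0.61 and 0.36 from left to right, and Atp5e lies far from 0 and Sdha near it in all 3.

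Against control and against each other, the treated groups gave medians nearer to 0. For curcumin against control, 0 members passed in edgeR (0% of all genes). At an unadjusted p under 0.05 there was 1, Atp5l, which was lower (2.34% of all genes in either direction). Of the Atp5l windows, 76.0% are shared with other transcripts. The median over members was 0.04, which was -0.63 without curcumin replicate 2. For garlic against control, 0 members passed (0% of all genes), 0 were at an unadjusted p under 0.05 (0.110%), and the median was -0.09, which was 0.11 without garlic replicate 1. For curcumin against garlic, 0 passed (0%), 0 were at an unadjusted p under 0.05 (1.60%), and the median was 0.16, which was -0.46 without curcumin replicate 2 and -0.06 without garlic replicate 1. DESeq2 and limma-voom also called 0 members in each of these 3 comparisons, where DESeq2 called 0.0199%, 0% and 0.0239% of all genes and limma-voom 0%. With 2 and 3 libraries in the treated groups, a p above the threshold does not show that the values were alike.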

How the data were processed

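The authors deposited 1 table of raw counts for all 12 libraries, and 0 of its columns were left out. Counting used featureCounts on GRCm39, after FastQC, per the submitters' processing notes; per the labels' protocols, libraries were stranded poly-A libraries sequenced as paired 150-base reads. Not given in the sources used here are the aligner, the annotation, the strand setting and how multi-mapping reads were treated. Names came from GENCODE M21 and RefSeq tables on GRCm38 (51486 of 78334 IDs, 65.7%, holding 97.8% of counts), so no gene coordinates are given; promoter windows are on GRCm38.p6. Genes were filtered with filterByExpr by group, scaled by TMM and fitted over all 12 libraries in 1 model of 4 groups in edgeR 4.0.16 (R 4.3.3; quasi-likelihood, two-sided), with 6 contrasts and Benjamini-Hochberg adjustment over all 25562 genes. The SE is the log2 fold change divided by the square root of F, and CPM uses TMM-scaled totals. Library totals of 12950017 to 30271706 counts set the precision. The test was tested on simulated data. Alternatives were DESeq2 1.42.0, limma 3.58.1 (voom), RLE scaling, other filters, a replicate block, a covariate for detected genes, a length correction and leaving out libraries. No pair of libraries looked like 1 library deposited again (chi-square per degree of freedom at least 20.71, between control replicates 1 and 2). Some pairs across groups were close. Control replicate 1 with garlic replicate 1 gave 20.94 and control replicate 3 with garlic replicate 2 gave 26.51. The 2 garlic libraries gave 61.73 with each other. The reason was not tested. The members, lists and doubted libraries (diabetes replicate 4 and curcumin replicate 2) were chosen with earlier results of these data known. Values in every library are given for members fixed by role and, per complex and comparison, for those of smallest p or of highest or lowest log2 fold change averaging at least 1 CPM; Uqcrh, Sdhc, Atp5k, Atp5o and others given by fold change only were chosen after their values were seen.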

Additional observations from a re-analysis of the deposited data

Results flagged for a closer look

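Among 53 sets of 4 diabetes values, 3 held a library far from the other 3; chance marks about 1 in 20 such sets. Uqcrc2 was at 173 CPM in diabetes replicate 1, against 151 to 153 CPM in the other 3 diabetes libraries. Cox8b, the muscle form, was at 0.620 CPM in diabetes replicate 4 and 0 in the others, and that library also held the highest pituitary and blood marker sums. The score of complex II in diabetes replicate 2 was -0.156, against 0.387 to 0.485 in the other 3.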

How the results depend on the processing

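The sign of the median over members held under all alternatives in diabetes against control (0.58 to 1.46), curcumin against diabetes (-1.32 to -0.44) and garlic against diabetes (-2.13 to -0.68), whereas the number of members past the threshold did not hold at 0. Where a count or sign changed, the cause was not tested. In the order diabetes against control, curcumin against diabetes and garlic against diabetes, DESeq2 called 13, 11 and 12 members and limma-voom 19, 5 and 14. With no filter on low counts, edgeR called 15, 17 and 15 (0.932, 2.25 and 0.709% of all genes). The length correction gave 12, 0 and 11, and leaving out 1 library at a time gave 0 to 8, 0 to 25 and 0 to 3. RLE scaling, the stricter filter (1 CPM in 4 libraries) and the replicate block gave 0 in each. The covariate for detected genes gave 8 in curcumin against diabetes and medians of 1.46, -1.25 and -2.13, and 0.95 in curcumin against garlic. In all of these but curcumin against diabetes, detected genes did not overlap between the groups compared. There the covariate cannot be told apart from the group. Without the 2 doubted libraries, 20 members passed in curcumin against diabetes (4.32% of all genes) and 36 did not overlap (14.4%). This alternative was added after the values were seen. With it, 1 member passed in curcumin against control (0.0643% of all genes) and 1 in curcumin against garlic (0.00402%). Leaving out 1 library gave 0 to 1 in these last 2, and medians of -1.32 to -0.44 in curcumin against diabetes, -0.63 to 0.32 in curcumin against control, -0.40 to 0.11 in garlic against control and -0.46 to 0.43 in curcumin against garlic. Medians changed sign in curcumin against control with limma-voom (-0.19), the replicate block (-0.066) and without the 2 doubted libraries (-0.60), and in curcumin against garlic with limma-voom (-4.85e-05) and without the 2 doubted libraries (-0.44). Over all genes, calls ran from 0 to 1177, 1 to 1975 and 0 to 429 in the first 3 comparisons, against 4, 23 and 0 as reported. Correlations of deviations from the group means were -0.179 to 0.252 for 15 pairs with the same replicate number and -0.366 to 0.366 for 38 with different numbers. Deviations sum to 0 within a group, and those of the 2 garlic libraries are exact opposites. The check therefore cannot decide whether the numbers pair libraries. The replicate block gave medians of 0.61, -0.79 and -0.76. Where a lone library stood for a group, it was assumed to vary like the other groups.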
